A study of Mus musculus with 38 samples.

Results

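The genes described here are 9 genes of the gap junction and the intercalated disc, namely the connexins Gja1, Gja4, Gja5 and Gjc1, the scaffold gene Tjp1, the cadherin Cdh2 and the plaque genes Dsp, Pkp2 and Jup. They were taken by symbol from the 35682 genes of the deposited count table, and each matched 1 row. RNA came from male C57BL/6 mice of 8 to 12 weeks in 3 conditions. All mice were dosed orally each day for 6 weeks, Sham and Control-AMI mice with vehicle (5% DMSO in saline) and EMPA–Pre-AMI mice with 10 mg/kg/day of the SGLT2 inhibitor empagliflozin in that vehicle. Sham mice then had their chest opened without coronary occlusion. Both infarct groups underwent 30 min of ischemia by ligation of the left anterior descending artery and 2 h of reperfusion, and tissue below the suture was dissociated. Each of the 38 libraries pooled 2 hearts. Cardiomyocytes (4 libraries of Sham, 5 of Control-AMI and 4 of EMPA–Pre-AMI) were a low-speed pellet that was not sorted. ECs (4, 4 and 5 libraries) were sorted as CD45- CD31+ cells, and fibroblasts (4, 4 and 4 libraries) as CD45- CD31- CD90+ cells.

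Ventricular cardiomyocytes are joined end to end at the intercalated disc. There, gap junction channels built of connexins pass current from cell to cell, while adherens junctions and desmosomes anchor the actin and desmin filaments of neighbouring cells to each other. Connexin 43 is the main connexin of the working ventricle, and its loss from the disc is a known feature of ischemic and failing myocardium. Endothelial cells and fibroblasts carry connexins and cadherins of their own at other kinds of contact.

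Library totals ranged from 2031716 to 4509284 counts for cardiomyocytes, from 1352514 to 2195308 for ECs and from 1946056 to 2821373 for fibroblasts, and mitochondrially encoded genes took 46.6% to 66.01%, 4.52% to 14.6% and 3.47% to 12.5% of them. The 9 cardiomyocyte markers summed to 53790 to 123300 CPM (counts scaled to library size, here over all 38 libraries) in the pellet, to 162 to 953 CPM in ECs and to 73.5 to 586 CPM in fibroblasts. The 10 endothelial markers summed to 4719 to 9878 CPM in ECs and to 1150 to 2630 CPM in the cardiomyocyte pellet, which is 12.3% to 28.0% of the mean of Sham ECs. The 10 fibroblast markers were lower in Sham ECs (517 to 1564 CPM) and EMPA–Pre-AMI ECs (463 to 906 CPM) than in all 4 Control-AMI EC libraries (2125 to 9121 CPM). The 10 mural markers, genes of pericytes and smooth muscle, reached 4277 CPM in Control-AMI fibroblast replicate 4, against 669 to 1058 CPM in the other 3 Control-AMI fibroblast libraries. No listed marker of these 4 cell types was at 0 in every library of any population. In pooled RNA, fewer cells of a type and less RNA per cell cannot be told apart.

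Levels are given on 1 of 2 scales. The joint scale, normalised over all 38 libraries, serves to compare populations, and the scale of a population, normalised within it, serves to compare conditions. Libraries were made from the 3′ ends of transcripts, so values of different genes were not set against each other. FDR stands for the Benjamini-Hochberg adjusted p of edgeR's quasi-likelihood test over all genes tested, a gene was called at an FDR below 0.05, and values of libraries are given in replicate order. In Sham hearts, the cardiomyocyte pellet and ECs differed at 52.9% of 12085 genes, the pellet and fibroblasts at 47.3%, and ECs and fibroblasts at 37.7%. Of the 9 genes, 8 passed the count filter of this model, and 5 of the 8 were called in each of the 3 comparisons. Gja5 did not pass. Sham ECs shared no sample-sheet list, described below with Gja1 in fibroblasts, with Sham pellets or Sham fibroblasts. For these pairs, population and list cannot be told apart within Sham.

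**Figure D1:**
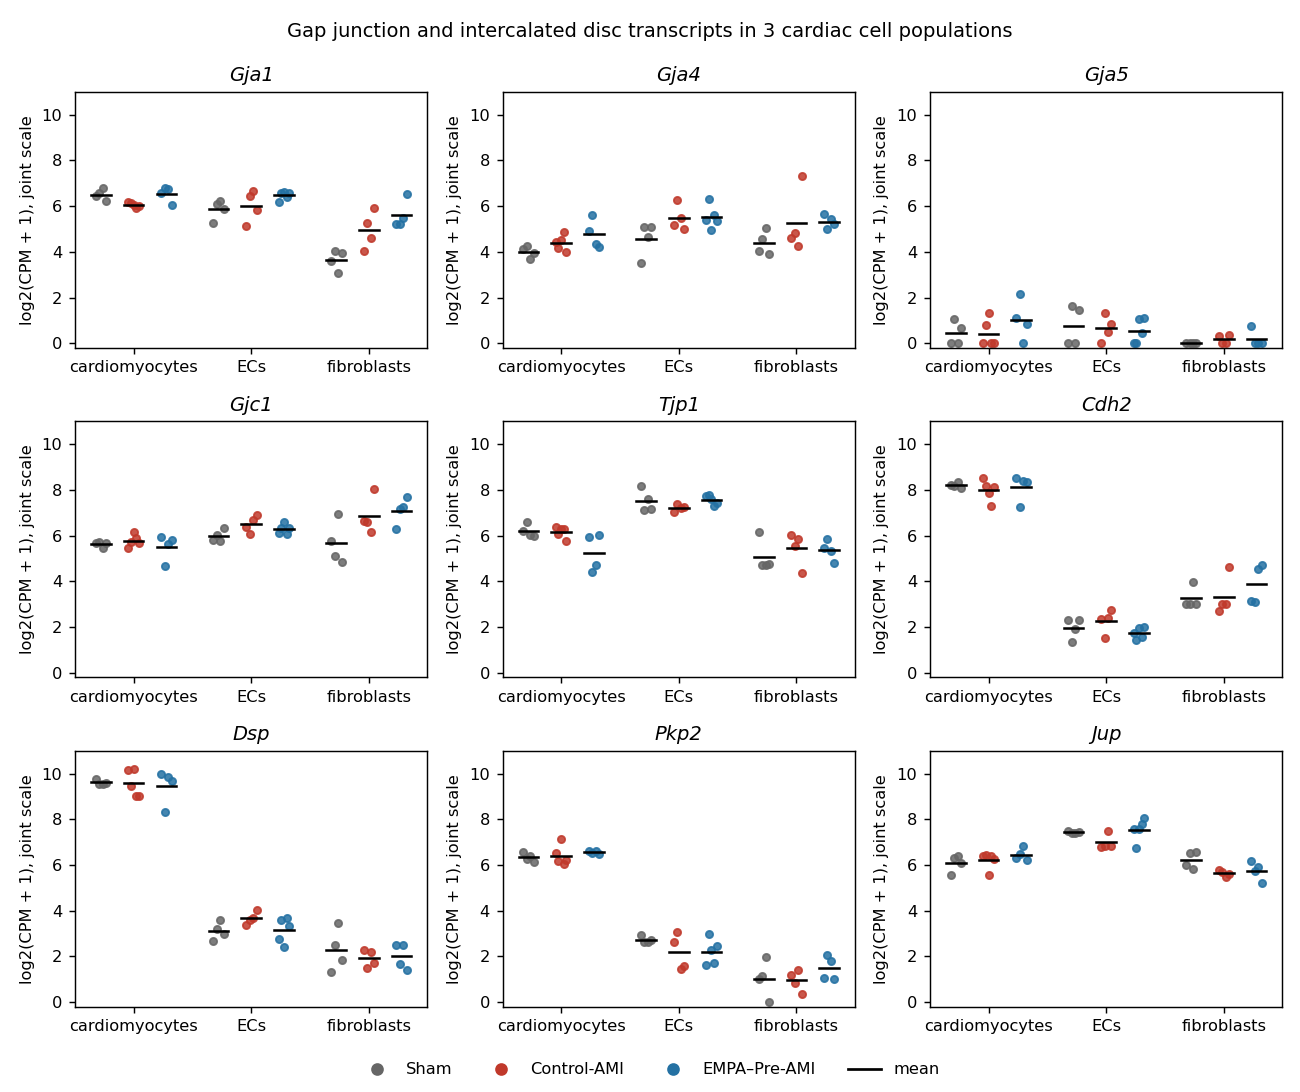
Level of each of the 9 genes in 38 libraries, as log2(CPM + 1) on the joint scale (y axis) by population (x axis) and condition (colour). Points are libraries and bars are group means of the plotted values. Cdh2, Dsp and Pkp2 stood highest in the cardiomyocyte pellet in every condition, and Gja5 was near 0 throughout.

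Gja1 encodes connexin 43 and lies on the plus strand of chromosome 10 (GRCm39, chr10:56253241-56278609), with 2 exons in its canonical transcript. In Sham hearts its joint-scale level was 86.1, 94.1, 109.5 and 72.9 CPM in the cardiomyocyte pellet, 36.9, 67.7, 74.5 and 56.9 CPM in ECs, and 11.2, 15.3, 7.38 and 14.3 CPM in fibroblasts. Fibroblasts were below all other libraries. The log2 fold change was 2.90 (SE 0.34, FDR 4.42e-09) for the pellet over fibroblasts and 2.29 (SE 0.34, FDR 5.12e-07) for ECs over fibroblasts. Pellet and ECs, which overlapped by 1 library, did not differ beyond their spread (log2 fold change 0.61, 95% interval -0.02 to 1.25, FDR 0.0954).

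Connexin 43 transcript in fibroblasts was the 1 member called between conditions. Across the 9 comparisons of conditions within a population, 69 tests of members were made, and 1 was called. On the scale of the fibroblast population, Gja1 measured 16.5, 22.9, 10.8 and 21.2 CPM in Sham, 22.6, 55.6, 33.9 and 87.3 CPM in Control-AMI, and 53.5, 53.7, 63.2 and 132.3 CPM in EMPA–Pre-AMI. Every EMPA–Pre-AMI library stood above every Sham library, and 1 of the 4 Control-AMI libraries, at 22.6 CPM, lay inside the Sham range. Of all genes tested in fibroblasts, 11.8% had EMPA–Pre-AMI and Sham groups that did not overlap. EMPA–Pre-AMI exceeded Sham by a log2 fold change of 2.08 (SE 0.42, 95% interval 1.18 to 2.98, FDR 0.0111), in a comparison that called 5.11% of 10691 genes. Without EMPA–Pre-AMI replicate 4, the highest library, the log2 fold change was 1.67 (FDR 0.0290). Control-AMI against Sham gave 1.48 (SE 0.42, 95% interval 0.59 to 2.37, FDR 0.0619), in a comparison that called 4.16% of genes. EMPA–Pre-AMI against Control-AMI gave 0.60 (SE 0.39, FDR 0.9998), and this comparison called 0% of genes. These comparisons share libraries with each other and are not independent.

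The summed mural markers in the same fibroblast libraries were 1095, 1764, 3021 and 1507 CPM in Sham, 1454, 1547, 981 and 6204 CPM in Control-AMI, and 2293, 1673, 2897 and 3322 CPM in EMPA–Pre-AMI, on the scale of that population. Replicate 4 had the highest mural sum and the highest Gja1 in both infarct groups, and Sham replicate 3, with the highest sum of its group, had the lowest Gja1. Of the 10 mural markers, Tagln, an actin-binding gene of smooth muscle and of activated fibroblasts, was the 1 called in fibroblasts, with log2 fold changes of 2.45 for Control-AMI over Sham and 2.91 for EMPA–Pre-AMI over Sham. The summed endothelial markers, of cells in which Gja1 is higher, were 57.7 to 605.5 CPM in Sham fibroblasts, 188 to 755 CPM in Control-AMI and 133 to 784 CPM in EMPA–Pre-AMI. The summed mesothelial markers were 64.2 to 140.3 CPM in Sham fibroblasts, 42.2 to 146.8 CPM in Control-AMI and 91.7 to 243.6 CPM in EMPA–Pre-AMI, highest in EMPA–Pre-AMI replicate 4, and 1 of the 8 tested was called for EMPA–Pre-AMI over Sham, upward. The part of these 3 cell types in the Gja1 difference was not tested. The sample names in the labels restart along the sample-sheet numbers, which gives 4 lists of libraries. What a list stands for is not stated, and fibroblast libraries came from lists 1, 3 and 4. Sham pellets came from list 4, Sham ECs from lists 2 and 3, and Sham fibroblasts from lists 1 and 4. With list as a term, comparisons of Sham ECs with the other Sham populations rest on infarct libraries, which alone link these lists. Within list 4, Gja1 was 16.5 CPM in the Sham library, 22.6, 55.6 and 33.9 CPM in Control-AMI and 53.7 and 63.2 CPM in EMPA–Pre-AMI. Within list 1, it was 22.9, 10.8 and 21.2 CPM in Sham, 87.3 CPM in the Control-AMI library and 132.3 CPM in the EMPA–Pre-AMI library.

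In the cardiomyocyte pellet, Gja1 was 37.7, 41.8, 47.9 and 32.3 CPM in Sham, 31.0, 31.1, 28.6, 27.3 and 28.4 CPM in Control-AMI, and 42.7, 56.9, 46.4 and 28.8 CPM in EMPA–Pre-AMI, on the scale of that population. All 5 Control-AMI libraries lay below all 4 Sham libraries, by a small margin that was not called (log2 fold change -0.44, 95% interval -0.85 to -0.04, FDR 0.9998). This comparison called 0.0655% of 9167 genes, and 2.47% had groups that did not overlap. EMPA–Pre-AMI exceeded Control-AMI by 0.57 (SE 0.20, FDR 0.0944), also short of the threshold, where 0.0218% of genes were called. EMPA–Pre-AMI replicates 1 and 3 came from list 3 and replicate 2 from list 2, while replicate 4 and all Sham and Control-AMI pellets came from list 4. Replicate 4, at 28.8 CPM, lay within the Control-AMI range, and with list as a term the log2 fold change was -0.02 (FDR 0.9991). That estimate sets replicate 4 alone against the Control-AMI pellets, since it is the 1 EMPA–Pre-AMI pellet in their list, and the same holds for the list-term values of EMPA–Pre-AMI pellets below.

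In ECs, Gja1 was 59.6, 105.5, 118.3 and 90.9 CPM in Sham, 52.6, 133.7, 157.7 and 85.9 CPM in Control-AMI, and 114.7, 151.4, 154.4, 134.7 and 146.6 CPM in EMPA–Pre-AMI, on the scale of that population. The EMPA–Pre-AMI libraries lay in the upper part of the whole range, and both other groups overlapped them. The Control-AMI values of 52.6 and 85.9 CPM came from list 4, which held no ECs of the other conditions. List 3 gave the lowest Sham value, 59.6 CPM, beside 134.7 and 146.6 CPM in EMPA–Pre-AMI. Within list 2, Gja1 was 90.9 to 118.3 CPM in Sham and 133.7 and 157.7 CPM in Control-AMI. EMPA–Pre-AMI values there were 114.7 to 154.4 CPM. For the Control-AMI ECs of list 4, condition and list cannot be told apart, here or for other genes. No EC contrast of Gja1 was called, the largest being 0.58 for EMPA–Pre-AMI over Sham (95% interval 0.04 to 1.13, FDR 0.316).

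**Figure D2:**
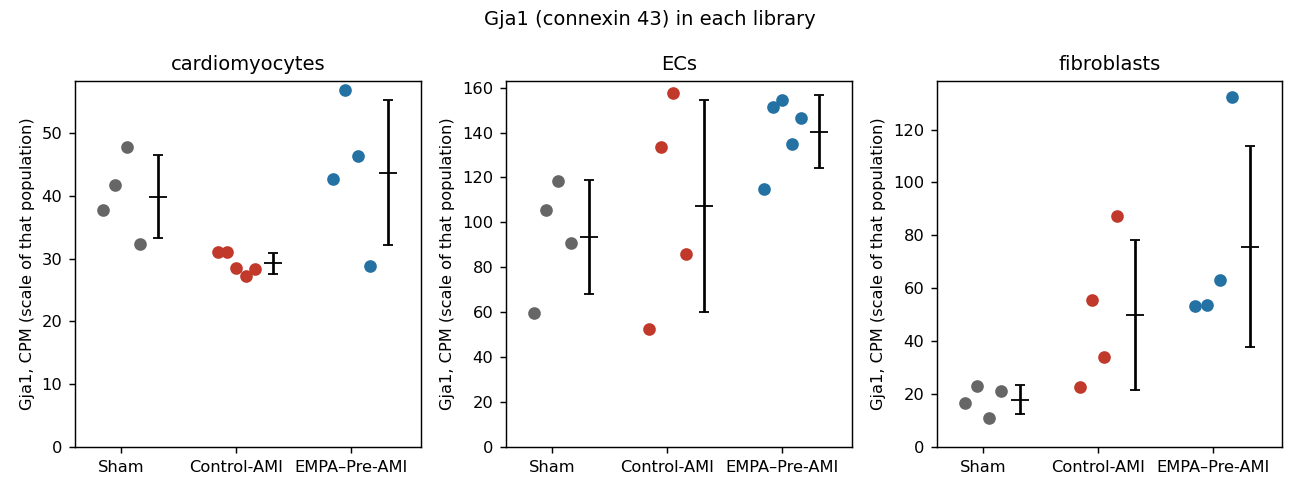
Gja1 in each library, in CPM on the scale of each population (y axes start at 0 and differ between panels), by condition. Points are libraries in replicate order from left to right, and the bar with whiskers is the mean with 1 SD. In fibroblasts the 4 EMPA–Pre-AMI libraries, from 53.5 to 132.3 CPM, stand above the 4 Sham libraries, from 10.8 to 22.9 CPM.

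Whether the change of Gja1 after infarction differed between populations was tested in the model of all libraries. That model treats libraries as independent, though the populations were taken from the same digested hearts. The change from Sham to Control-AMI was lower in the pellet than in fibroblasts by 1.95 on the log2 scale (95% interval -2.86 to -1.05 for pellet minus fibroblasts, FDR 0.0416), where 0.331% of 12085 genes were called. This call was lost in 15 of 24 alternatives, and without Control-AMI fibroblast replicate 4 the difference was -1.54 (FDR 0.148). For ECs minus fibroblasts the difference was -1.28 (FDR 0.128), with 3.22% of genes called, and for pellet minus ECs -0.67 (FDR 0.737), with 1.51% called. For the step from Control-AMI to EMPA–Pre-AMI, none of the 8 genes was called in edgeR's test or in DESeq2, with a smallest FDR of 0.201 (Tjp1, pellet minus ECs). The corresponding shares of genes called were 0.993% for pellet minus ECs, 0.00827% for pellet minus fibroblasts and 2.04% for ECs minus fibroblasts. Of the 48 tests of members in both steps, 4 had an unadjusted p below 0.05, where the share of all genes was 8.09% to 16.5% over the 6 comparisons.

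The start of Gja1 is shown because it is the member that was called. RefSeq's promoter table (GRCm38.p6) holds 6 of the 9 genes. In the 250 bases before each start 1 of the 6, Gja1, holds the letters TGANTCA, where N is any base. This pattern reads the same on both strands, and it includes the AP-1 motif but is wider, since that motif has C or G at N. Of all 32851 promoters in the table, 6.75% hold these letters. The match begins 19 bases before the RefSeq start. The 27 bases printed lie at chr10:56253367-56253393 on the plus strand when placed on GRCm39, with the match at chr10:56253377-56253383. The match lies inside the GENCODE gene model of Gja1, which starts at chr10:56253241. In the 250 bases searched, 2 GENCODE transcripts of Gja1 have an exon. The capitals mark the motif.
Gja1: tccttccagtTGAGTCAgtggcttgaa
The match is a description of the sequence, and binding there was not measured.

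Gja4 encodes connexin 37, a connexin of vascular endothelium, and lies on the minus strand of chromosome 4 (chr4:127205214-127207851). In Sham hearts its joint-scale level was 16.7, 18.1, 11.7 and 14.4 CPM in the pellet, 10.6, 33.2, 23.9 and 32.6 CPM in ECs, and 15.6, 22.7, 32.2 and 13.8 CPM in fibroblasts. The 3 ranges overlapped, and no pair was called (log2 fold change -0.71 for pellet minus ECs, 95% interval -1.77 to 0.35, FDR 0.261). Within ECs it was 17.1, 51.8, 38.0 and 52.1 CPM in Sham, 54.9, 119.6, 67.5 and 47.9 CPM in Control-AMI, and 64.6, 123.3, 48.1, 77.9 and 62.2 CPM in EMPA–Pre-AMI, on the scale of that population. Both infarct groups reached higher values than any Sham library, and both overlapped the Sham range. The log2 fold changes over Sham were 0.86 for Control-AMI (FDR 0.218) and 0.92 for EMPA–Pre-AMI (FDR 0.248), in comparisons that called 6.56% and 2.71% of 10438 genes. In the pellet the EMPA–Pre-AMI values were 13.4, 24.8, 8.49 and 7.74 CPM against 5.13 to 8.01 CPM in Sham (log2 fold change 0.95, FDR 0.188), where 0.338% of genes were called. The value was 0.52 (FDR 0.404) without EMPA–Pre-AMI replicate 2, the highest library, 1.14 (FDR 0.0424) without replicate 4 and 0.19 with list as a term. In EMPA–Pre-AMI pellet replicate 2, leukocyte markers summed to 237.7 CPM, against 27.45 to 85.45 CPM in the other EMPA–Pre-AMI pellets, on that population's scale. Mitochondrially encoded genes took 66.01% of its counts, against 55.72% to 59.6%. The part of these values in those of Gja4 was not tested.

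In fibroblasts Gja4 was 22.9, 33.9, 47.3 and 20.5 CPM in Sham, 34.5, 39.8, 26.2 and 232.5 CPM in Control-AMI, and 72.1, 45.3, 62.2 and 52.5 CPM in EMPA–Pre-AMI, on the scale of that population. Control-AMI replicate 4 was the library in which the mural markers summed to 6204 CPM, and the other 3 Control-AMI libraries lay within the Sham range. Control-AMI over Sham gave a log2 fold change of 1.43 (95% interval -0.003 to 2.85, FDR 0.261). Without that library, EMPA–Pre-AMI over Sham became a call for Gja4 beside that for Gja1. That library is in neither group of this comparison. In the same fit the FDR of Gja1 went from 0.0111 to 0.00264, with its log2 fold change still 2.08. The share of all genes called in that fit is not given here.

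Gjc1 encodes connexin 45, which in adult heart is best known from the conduction system and from vascular muscle, and lies on the minus strand of chromosome 11 (chr11:102686879-102710532). Sham levels on the joint scale were 49.5, 51.4, 43.01 and 49.4 CPM in the pellet, 54.8, 64.0, 53.9 and 80.4 CPM in ECs, and 52.8, 33.3, 122.0 and 27.7 CPM in fibroblasts. No pair of populations was called, and the fibroblast libraries spread the widest. Within fibroblasts Gjc1 was 77.7, 49.7, 179.1 and 40.98 CPM in Sham, 143.4, 138.1, 102.7 and 384.0 CPM in Control-AMI, and 113.7, 207.9, 223.5 and 299.5 CPM in EMPA–Pre-AMI, on the scale of that population. Sham replicate 3, with the highest mural sum of its group, overlapped both infarct groups. The log2 fold change over Sham was 1.15 for Control-AMI (FDR 0.273) and 1.28 for EMPA–Pre-AMI (FDR 0.212). In ECs Control-AMI was 0.51 above Sham (95% interval 0.12 to 0.89, FDR 0.113), from 85.7 to 128.4 CPM in Sham and from 104.5 to 182.4 CPM in Control-AMI. The 2 fibroblast patterns are drawn against the mural sum, whose part in them was not tested.

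**Figure D3:**
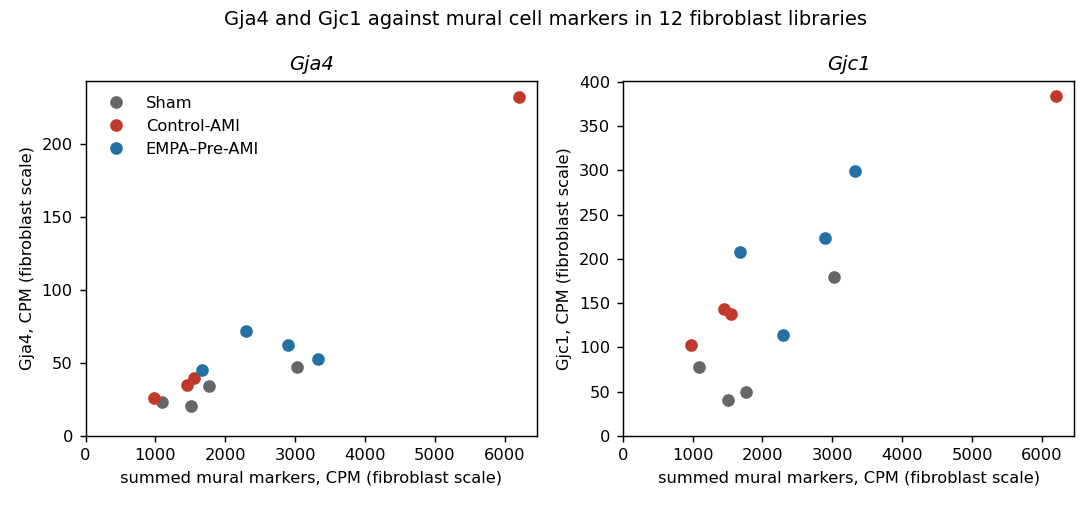
Gja4 (left) and Gjc1 (right) in CPM on the fibroblast scale (y axes) against the summed CPM of 10 mural markers (x axes) in 12 fibroblast libraries, 1 point a library and coloured by condition. Control-AMI replicate 4 stands apart at the upper right, at 6204 CPM of mural markers with 232.5 CPM of Gja4 and 384.0 CPM of Gjc1.

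Gja5 encodes connexin 40, known from atrial muscle, the conduction system and arterial endothelium, and lies on the plus strand of chromosome 3 (chr3:96812009-96984732). It had 0 to 7 counts per library and any count in 18 of 38 libraries, so it was not tested. Its counts in Sham libraries were 0, 2, 0 and 1 in the pellet, 0, 7, 0 and 4 in ECs, and 0 in all 4 fibroblast libraries. A count of 0 allows up to 3 counts, which is 0.665 to 1.48 CPM in pellet libraries, 1.37 to 2.22 CPM in ECs and 1.06 to 1.54 CPM in fibroblasts, for counting error only and before normalisation. No change of Gja5 was detectable at this depth.

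Tjp1 encodes ZO-1, the scaffold that binds the tail of connexin 43 and links junctions to actin, and lies on the minus strand of chromosome 7 (chr7:64945898-65177529). On the joint scale its Sham level was 72.6, 95.2, 63.3 and 62.02 CPM in the pellet, 286.9, 139.3, 193.1 and 141.6 CPM in ECs, and 69.6, 25.0, 25.1 and 25.8 CPM in fibroblasts. ECs stood above all other libraries, and 1 fibroblast library overlapped the pellet. ECs exceeded the pellet by a log2 fold change of 1.37 in size (pellet minus ECs -1.37, FDR 0.000536) and exceeded fibroblasts by 2.38 (FDR 2.26e-07). The pellet exceeded fibroblasts by 1.01 (FDR 0.0114), a call lost without Sham pellet replicate 2 (0.85, FDR 0.0514) and with list as a term (0.22, FDR 0.594). The mean of the pellet was 38.5% of that of Sham ECs, and the pellet's summed endothelial markers were 16.02% to 22.3% of it in Sham.

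Within the pellet, Tjp1 was 31.8, 42.2, 27.7 and 27.5 CPM in Sham, 35.4, 29.8, 33.2, 35.3 and 23.6 CPM in Control-AMI, and 27.3, 10.3, 11.03 and 27.8 CPM in EMPA–Pre-AMI, on the scale of that population. EMPA–Pre-AMI replicates 2 and 3 were low and the other 2 were within the range of the other groups. The log2 fold change was -0.72 against Control-AMI (FDR 0.125) and -0.76 against Sham (FDR 0.199). Without EMPA–Pre-AMI replicate 4 both passed the threshold, at -0.98 (FDR 0.0296) and -1.02 (FDR 0.0399), and the genes called in these comparisons went from 2 to 1498 and from 31 to 943. With list as a term the values were -0.18 (FDR 0.9991) and -0.22 (FDR 0.9999). The endothelial marker sums of the 4 EMPA–Pre-AMI pellets were 881, 1358, 507 and 575 CPM on the same scale, so replicate 2 had the highest and replicate 3 the lowest. In ECs, Tjp1 was 463.7, 217.3, 306.6 and 226.3 CPM in Sham, 202.7 to 256.8 CPM in Control-AMI and 247.1 to 350.4 CPM in EMPA–Pre-AMI, and no contrast was called.

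Cdh2 encodes N-cadherin, the cadherin of the disc's adherens junctions, and lies on the minus strand of chromosome 18 (chr18:16700793-16942381). In Sham hearts it was 292.5, 286.1, 329.2 and 272.2 CPM in the pellet, 4.02, 1.53, 2.76 and 3.91 CPM in ECs, and 7.14, 7.07, 14.8 and 6.92 CPM in fibroblasts, on the joint scale. The 3 populations did not overlap. The log2 fold change was 6.61 (SE 0.46, FDR 1.5e-14) for the pellet over ECs and 5.04 (SE 0.41, FDR 6.71e-13) for the pellet over fibroblasts. ECs were below fibroblasts (log2 fold change -1.57, FDR 0.00856), a call lost without Sham fibroblast replicate 3 (-1.23, FDR 0.0529). With list as a term it was lost too and the direction turned (0.019, FDR 0.9925). The EC mean was 1.03% of the pellet's, with single Sham libraries from 0.517% to 1.36%. The fibroblast mean was 3.04%, with libraries from 2.35% to 5.01%. The summed cardiomyocyte markers were 0.271% to 1.05% in Sham ECs and 0.109% to 0.643% in Sham fibroblasts. In fibroblasts, Cdh2 was 10.5, 10.6, 21.7 and 10.3 CPM in Sham, 8.05, 10.1, 10.2 and 34.2 CPM in Control-AMI, and 11.4, 11.1, 32.7 and 36.5 CPM in EMPA–Pre-AMI, on that population's scale. High libraries occurred in all 3 groups, and no contrast was called. With list as a term, EMPA–Pre-AMI over Sham was called for Cdh2 in fibroblasts. The share of all genes called with that term is not given here. In the pellet Cdh2 ranged from 71.3 to 166.3 CPM over all 13 libraries, with log2 fold changes of -0.15 to 0.19.

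Dsp encodes desmoplakin, which ties the desmosome to desmin filaments, and lies on the plus strand of chromosome 13 (chr13:38335230-38382553). Among the 8 tested genes its difference between the pellet and fibroblasts was the largest. Sham levels were 871.7, 754.3, 753.1 and 764.4 CPM in the pellet, 5.48, 8.23, 11.03 and 6.95 CPM in ECs, and 1.53, 4.71, 10.0 and 2.54 CPM in fibroblasts, on the joint scale. The pellet exceeded ECs by a log2 fold change of 6.61 (SE 0.44, FDR 2.98e-15) and fibroblasts by 7.41 (SE 0.46, FDR 4.69e-16). ECs and fibroblasts overlapped and did not differ beyond their spread (0.80, FDR 0.160). The EC mean was 1.01% of the pellet's and the fibroblast mean 0.599%, within the range of the summed cardiomyocyte markers given above. Within the pellet Dsp was 381.9, 334.8, 329.3 and 338.4 CPM in Sham, 495.6, 316.7, 513.7, 242.0 and 233.4 CPM in Control-AMI, and 463.8, 163.9, 408.6 and 356.1 CPM in EMPA–Pre-AMI. Both infarct groups spread above and below the narrow Sham range, and the log2 fold changes were 0.06 and 0.01 over Sham, with 95% intervals of -0.52 to 0.64 and -0.60 to 0.62.

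Pkp2 encodes plakophilin 2, an armadillo protein of the desmosomal plaque, and lies on the plus strand of chromosome 16 (chr16:16031144-16090586). Its Sham level was 93.2, 75.5, 82.9 and 70.1 CPM in the pellet, 6.57, 5.18, 5.21 and 5.65 CPM in ECs, and 1.02, 1.18, 2.95 and 0 CPM in fibroblasts, on the joint scale. The pellet exceeded ECs by a log2 fold change of 3.82 (SE 0.37, FDR 1.8e-11) and fibroblasts by 5.99 (SE 0.44, FDR 6.34e-15), and ECs exceeded fibroblasts by 2.16 (SE 0.49, FDR 0.000394), a call lost with list as a term (1.66, FDR 0.121). The populations did not overlap. The EC mean was 7.03% of the pellet's, above the 0.271% to 1.05% of the cardiomyocyte markers, and the fibroblast mean was 1.60%. Fibroblast libraries had 0 to 10 counts, so Pkp2 was not tested there. Within the pellet Pkp2 was 31.0 to 40.8 CPM in Sham, 30.3 to 59.5 CPM in Control-AMI and 38.4 to 46.6 CPM in EMPA–Pre-AMI, and no contrast was called.

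Jup encodes plakoglobin, the armadillo protein shared by adherens junctions and desmosomes, and lies on the minus strand of chromosome 11 (chr11:100259784-100291103). Sham levels on the joint scale were 45.6, 79.3, 82.1 and 66.6 CPM in the pellet, 176.3, 165.9, 167.6 and 173.3 CPM in ECs, and 63.8, 91.0, 56.4 and 92.8 CPM in fibroblasts. ECs stood above all other libraries with little spread. The log2 fold change was -1.32 for pellet minus ECs (SE 0.24, FDR 1.04e-05), 1.17 for ECs minus fibroblasts (SE 0.23, FDR 6.46e-05) and -0.15 for pellet minus fibroblasts, which overlapped (FDR 0.616). With list as a term the call of ECs over fibroblasts was lost (0.76, FDR 0.0948). Of the desmosomal genes, Dsp and Pkp2 were thus highest in the pellet and Jup in ECs.

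Within ECs, Jup was 284.9, 258.6, 266.2 and 276.9 CPM in Sham, 172.8, 179.8, 280.0 and 178.1 CPM in Control-AMI, and 304.1, 167.1, 300.8, 356.5 and 414.1 CPM in EMPA–Pre-AMI, on the scale of that population. Of the 4 Control-AMI libraries, 3 lay below every Sham library, and 1 EMPA–Pre-AMI library lay as low. EMPA–Pre-AMI over Control-AMI gave a log2 fold change of 0.61 (95% interval 0.19 to 1.03, FDR 0.154), in a comparison that called 2.63% of genes. It passed the threshold without Control-AMI replicate 3 (0.79, FDR 0.0305) and without EMPA–Pre-AMI replicate 2 (0.76, FDR 0.00920), where 338 and 399 genes were called in place of 274. It was 0.24 (FDR 0.9918) with list as a term and 0.15 (FDR 0.998) within list 2. In Control-AMI replicate 3, the library with the highest Jup of its group, leukocyte markers summed to 706.5 CPM against 38.5 to 61.6 CPM in the other 3, and mitochondrially encoded genes took 14.6% of counts against 4.52% to 5.67%. Control-AMI over Sham gave -0.42 (FDR 0.275). The endothelial markers of the same libraries summed to 14070 to 15680 CPM in Sham, 7358 to 10050 CPM in Control-AMI and 10310 to 14820 CPM in EMPA–Pre-AMI on that scale, and fibroblast markers, 820.5 to 2438 CPM in Sham, reached 3332 to 14220 CPM in Control-AMI and 740.2 to 1441 CPM in EMPA–Pre-AMI. The part of these values in those of Jup was not tested. In fibroblasts, Jup was 93.9, 135.9, 82.8 and 137.3 CPM in Sham, 78.6, 75.1, 64.4 and 68.3 CPM in Control-AMI, and 104.3, 77.4, 87.0 and 52.5 CPM in EMPA–Pre-AMI. All Control-AMI libraries lay below all Sham libraries, and the difference was not called (log2 fold change -0.65, 95% interval -1.11 to -0.19, FDR 0.109). Groups did not overlap for 12.3% of genes in this comparison.

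Across conditions, edgeR called 0 of 8 members in each of the 3 pellet comparisons and each of the 3 EC comparisons, and 0 of 7, 0 of 7 and 1 of 7 in fibroblasts. At an unadjusted p below 0.05, in the order Control-AMI over Sham, EMPA–Pre-AMI over Control-AMI and EMPA–Pre-AMI over Sham, there were 1, 2 and 2 members in the pellet, 2, 2 and 2 in ECs, and 2, 0 and 3 in fibroblasts. In the same order, the share of all genes was 2.72%, 25.0% and 18.2% in the pellet, 19.8%, 12.2% and 14.1% in ECs, and 19.2%, 1.59% and 20.8% in fibroblasts. DESeq2 called Gja1 in 3 comparisons, which were EMPA–Pre-AMI over Control-AMI in the pellet and each infarct group over Sham in fibroblasts, and no member in the other 6. In those 3 comparisons DESeq2 called 880 of all genes in the pellet, and in fibroblasts 772 for Control-AMI and 858 for EMPA–Pre-AMI over Sham. The median 95% interval reached 0.47 to 0.50 to either side on the log2 scale in the pellet, 0.61 to 0.64 in ECs and 1.07 to 1.08 in fibroblasts. Groups that did not overlap occurred for 1 member in each of 3 comparisons, which were Gja1 in the pellet and Jup in fibroblasts, both lower in Control-AMI than in Sham, and Gja1 in fibroblasts, where EMPA–Pre-AMI exceeded Sham. Of all genes tested, the share with non-overlapping groups in the same order of comparisons was 2.47%, 5.97% and 7.88% in the pellet, 11.3%, 4.21% and 6.56% in ECs, and 12.3%, 1.78% and 11.8% in fibroblasts.

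**Figure D4:**
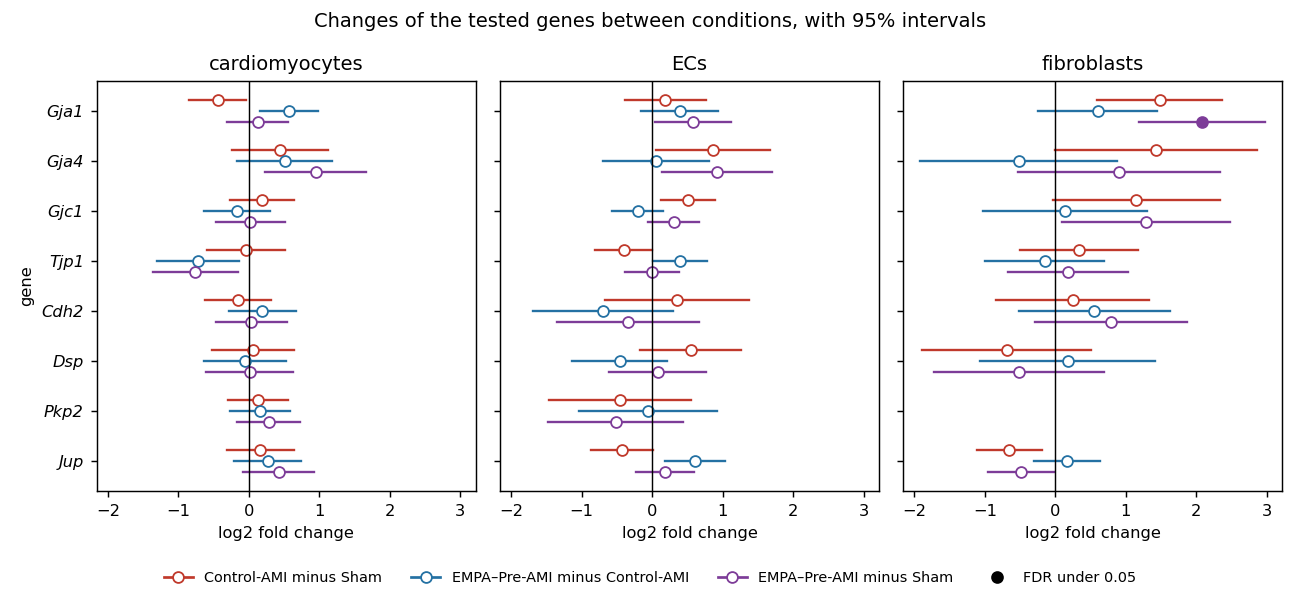
Log2 fold change (x axis) of the 8 tested genes (y axis) between conditions in each population, with 95% intervals as lines. Filled points have an FDR below 0.05 and colours mark the 3 comparisons. Gja1 in fibroblasts, EMPA–Pre-AMI minus Sham, at 2.08, is the 1 filled point, and Pkp2 has no value in fibroblasts.

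Other genes of the same structures were counted from lists. Among 14 further adhesion genes of the disc, such as catenins, desmosomal cadherins and vinculin, 14 were tested in the pellet, 10 in ECs and 9 in fibroblasts. The 1 called between conditions was Ctnnb1, the beta-catenin of adherens junctions, in ECs, lower in Control-AMI than in Sham (log2 fold change -0.61, FDR 0.0211). This is 1 of 10 tested, beside the 6.56% of all genes called there, and in the same libraries 3 of 10 endothelial markers were called lower and 8 of 9 fibroblast markers higher, whose part was not tested. In Sham hearts 8 of the 14 were higher and 4 lower in the pellet than in ECs, and 10 were higher and 2 lower in the pellet than in fibroblasts. Median log2 fold changes of 1.90 and 4.17 stood beside -0.04 and -0.09 over all genes.

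Of 12 channel genes and channel partners of the disc, 11 were tested in the pellet, 7 in ECs and 8 in fibroblasts. The 1 called between conditions was Ank2, the adaptor ankyrin B. It was higher in Control-AMI than in Sham ECs (2.66, SE 0.56, FDR 0.00665), 1 of 7 tested beside 6.56% of all genes called. This change exceeded that in the pellet (pellet minus ECs -2.15, FDR 0.0108), where 1.51% of genes were called. It exceeded that in fibroblasts too (ECs minus fibroblasts 2.58, FDR 0.00145), where 3.22% were called. The EC libraries of Control-AMI were those with the raised fibroblast markers, of which 8 of 9 tested were also called higher there, and the part of those cells in the Ank2 difference was not tested. Of 14 genes of connexin trafficking and turnover, Actb and Cltb, beta-actin and a clathrin light chain, rose in fibroblasts from Sham to Control-AMI (0.97, FDR 0.00670, and 0.82, FDR 0.0204). EMPA–Pre-AMI exceeded Sham in both genes too (0.90, FDR 0.00995, and 0.75, FDR 0.0301), together with Dab2, an endocytic adaptor (0.87, FDR 0.0262). The median over the 14 was 0.09 and 0.14 in these comparisons, beside -0.03 over all genes. The 2 and 3 genes called stand beside 4.16% and 5.11% of all genes. Actg1, gamma-actin, was lower in ECs of both infarct groups than in Sham (-0.65, FDR 0.0184, and -0.72, FDR 0.00946). It was 1 of 12 tested in each, beside 6.56% and 2.71% of all genes called. For the change to Control-AMI in ECs minus that in fibroblasts, 2 of the 14 were called, both negative, beside 3.22% of all genes.

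Of 12 endothelial junction genes, 10 were tested in ECs. Jam2, Jam3 and Afdn, 2 junctional adhesion molecules and their actin-linking partner afadin, were lower in Control-AMI than in Sham (-0.77, FDR 0.0252, -0.80, FDR 0.0447, and -0.76, FDR 0.0180). These are 3 of 10, beside the 6.56% of all genes called in either direction. Cdh5, VE-cadherin, was higher in EMPA–Pre-AMI than in Control-AMI (0.64, FDR 0.0477), 1 of 10 tested beside 2.63% of all genes called. Cdh5 is itself 1 of the 10 endothelial markers, of which 2 were called higher in this comparison. All 9 fibroblast markers tested were called lower in it. These EC libraries are the ones whose endothelial and fibroblast marker sums are given with Jup, and the part of those cells was not tested. Of 19 further connexins and pannexins, 2 passed the filter in the model of all libraries, and the smallest FDR between conditions within a population was 0.0668.

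The genes most like a member were those with the smallest root mean square difference of mean log2 CPM over the 9 groups, each gene centred on its own mean. For Gja1 they were Tob1 (0.25), Filip1 (0.31) and Ciart (0.37), where the median over 12084 genes was 1.09. For Cdh2 they were Casq2 (0.18), the calsequestrin of the cardiac sarcoplasmic reticulum, Slc2a4 (0.20), the insulin-responsive glucose transporter, and Adra1b (0.26), and for Dsp Plin5 (0.32) and Lrtm1 (0.36). For Tjp1 they were Efnb1 (0.13), Cep85l (0.15) and Afdn (0.16), the last of these being afadin. The genes most like Pkp2 were Acsl1 (0.27), Gm4076 (0.31) and mt-Atp8 (0.34), and those most like Jup were Rb1 (0.15), Tpst2 (0.16) and Dbndd2 (0.16). Gja4 was followed most closely by Nol10 (0.17), Pphln1-ps1 (0.19) and Mbd1 (0.21), and Gjc1 by Nop56 (0.11), Sdad1 (0.14) and Map3k8 (0.15). These are likenesses over group means of the same libraries and carry no test.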

How the data were processed

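RNA was sequenced from 38 libraries made with a 3′ mRNA kit. The authors trimmed reads with cutadapt 2.8 (quality cutoff 20), quantified them with Salmon against Ensembl release 106 of GRCm39 and deposited 1 table of estimated counts per gene, of which 95.5% were whole numbers. These expected counts were rounded to whole numbers here. Gene positions are from GENCODE M39 on GRCm39, and 8 of the 9 genes have an overlapping gene model. Whether the counting used strand is not given in the sources used here, so reads of such partners cannot be told apart.

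Groups came from the sample titles. Each population was fitted by itself with edgeR 4.0.16 in R 4.3.3 (filterByExpr with a minimum of 10 counts, TMM, robust quasi-likelihood), and 1 model of all 38 libraries in 9 groups gave differences between Sham populations and between changes, as Benjamini-Hochberg adjusted p over all genes tested. The filter left 9167 genes in cardiomyocytes, 10438 in ECs, 10691 in fibroblasts and 12085 in the model of all libraries. By the paper's methods, cardiomyocytes came from the pellet, and ECs and fibroblasts from the supernatant, of the same digested hearts. Labels do not say which libraries share hearts. The model of all libraries treated them as independent, so its p-values take no account of shared hearts. All p-values measure the spread between libraries.

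The 9 genes and all lists were chosen with earlier results of these data known, and support nothing by their choice. All 9 genes are named. From the lists of further disc and junction genes, up to 4 genes with the smallest FDR below 0.05 are named per list and comparison of conditions. Genes of these lists called between populations, or in differences between changes, are counted or left out, apart from Ank2. For each tested member, the 3 genes nearest in pattern are given, except 1 that is not reported here. Alternatives were RLE factors, DESeq2 1.42.0, no robust estimation, other filters, removal of mitochondrially encoded genes, fewer samples, a replicate block, a sample-sheet list term and leaving out each library. For the models across populations the list term was added after seeing the data. The fits were tested on simulated counts.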

Additional observations from a re-analysis of the deposited data

Results flagged for a closer look

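In 69 groups of 4 or 5 libraries, 1 per tested gene, population and condition, 8 had a library whose gap to the nearest other exceeded the 95% limit of Dixon's test, which flags about 5 in 100 groups by chance. Values are CPM on the scale of the population. Of the 8, 6 were in fibroblasts. Control-AMI fibroblast replicate 4 was high for Gja4 (232.5 against 26.2 to 39.8), Gjc1 (384.0 against 102.7 to 143.4) and Cdh2 (34.2 against 8.05 to 10.2). This was the library with 6204 CPM of mural markers, and whether such cells account for the 3 values was not tested. EMPA–Pre-AMI fibroblast replicate 4 was high for Gja1 (132.3 against 53.5 to 63.2). Among Sham fibroblasts, replicate 1 was high for Tjp1 (102.5 against 36.9 to 38.3) and replicate 3 for Cdh2 (21.7 against 10.3 to 10.6). Jup was low in Control-AMI cardiomyocyte replicate 3 (20.0 against 34.2 to 39.3) and high in Control-AMI EC replicate 3 (280.0 against 172.8 to 179.8).

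The change of Gja1 from Sham to Control-AMI differed between cardiomyocytes and fibroblasts, by -1.95 on the log2 scale (FDR 0.0416 in edgeR's test). This call was lost in 15 of 24 alternatives, with -1.54 (FDR 0.148) without Control-AMI fibroblast replicate 4. All 5 Control-AMI cardiomyocyte libraries lay below every Sham library, though that change was not called within cardiomyocytes (FDR 0.9998). Groups did not overlap for 2.47% of genes in that comparison. In fibroblasts, 3 of 4 Control-AMI libraries were above every Sham library.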

How the results depend on the processing

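The call of Gja1 in fibroblasts, EMPA–Pre-AMI over Sham, was made in all 20 alternatives (log2 fold change 1.67 to 2.48). Counts of members called in the 9 comparisons of conditions were 0, with 1 for EMPA–Pre-AMI over Sham in fibroblasts. With DESeq2 the count was 1 for EMPA–Pre-AMI over Control-AMI in cardiomyocytes and 1 for Control-AMI over Sham in fibroblasts. With no filter it was 1 (Jup) for EMPA–Pre-AMI over Control-AMI in ECs. With the list term it was 1 for Control-AMI over Sham and 2 (with Cdh2) for EMPA–Pre-AMI over Sham in fibroblasts, 2 in place of 5 for ECs against fibroblasts in Sham (lost for Cdh2, Pkp2 and Jup), and 1 for the EC minus fibroblast difference of the change to Control-AMI. The cardiomyocyte minus fibroblast difference of that change lost its 1 member (Gja1) with RLE factors (0) and with no filter (0). Leaving out 1 library gave 0 to 2 members for both EMPA–Pre-AMI comparisons in cardiomyocytes (2 without EMPA–Pre-AMI replicate 4), 0 to 1 for Control-AMI over Sham in ECs (Gjc1, without Control-AMI replicate 2), 0 to 1 for EMPA–Pre-AMI over Control-AMI in ECs, 0 to 1 for Control-AMI over Sham in fibroblasts (Gja1, without Control-AMI replicate 1 or EMPA–Pre-AMI replicate 4), 1 to 2 for EMPA–Pre-AMI over Sham in fibroblasts (Gja4, without Control-AMI replicate 4), and 0 to 1 for both differences of change that involve fibroblasts. The causes were not tested. Of 673 alternative values of 35 named results, 2 changed sign, both with the list term, Gja1 for EMPA–Pre-AMI over Control-AMI in cardiomyocytes (-0.022, against 0.57) and Cdh2 for ECs over fibroblasts in Sham (0.019, against -1.57). In cardiomyocytes the list term rests on 1 EMPA–Pre-AMI library. For Sham ECs against Sham fibroblasts, only infarct libraries link their lists.

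Replicate numbers are shared between groups, but same-numbered libraries did not deviate together in every pair (correlations above 0.1 in 3 of 12 pairs in cardiomyocytes, 4 of 12 in ECs and 6 of 12 in fibroblasts). With the replicate block, 1 member was called for Control-AMI over Sham (Gja4) and 1 for EMPA–Pre-AMI over Sham (Gja4) in ECs, and 1 for Control-AMI over Sham (Gja1) in fibroblasts, where 0 were called without it. The counts of the other comparisons did not change. For Gja4 in ECs the log2 fold changes with the block were 0.87 (FDR 0.0445) and 0.98 (FDR 0.0396). Without it they were 0.86 and 0.92. The share of all genes called with the block or with the list term is not given here. Calls made only in those fits are not read as results about the members. Counts of 0 to 7 for Gja5 and 0 to 10 for Pkp2 in fibroblasts limit what can be said of both genes.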
